A study of Mus musculus with 617 samples.

Results

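A set of 7 genes of bone morphogenetic protein (BMP) signalling were followed through 617 single mouse cells: the ligands Bmp4 and Bmp7, the inhibitor Smad6, and the target genes Id1, Id2, Id3 and Id4. They were taken by gene symbol from tables of FPKM, which scale a gene's fragments to its length and to the cell's depth, and all 7 of 7 were found among 43628 gene IDs.

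The study made a SMART-seq2 library, a full-length RNA method, from each cell. Its purpose, from the title, was to follow expression from each parental allele and X inactivation through pluripotency and differentiation. The values used here are total expression and hold no allele information. All cells lay in 13 groups, each treated as 1 sample.

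Cell lines came from crosses of a male CAST/EiJ with a female C57BL/6J mouse, 1 female and 1 male line, so line and sex cannot be told apart. Both were grown as embryonic stem (ES) cells in 2i, the ground-state medium, with LIF (60 female and 51 male cells), and in serum with LIF (68 and 52). Epi cells (epistem cells in the labels) were kept in Activin A and FGF2 (79 and 63). Motor neuron cultures went through embryoid bodies with retinoic acid and the Smoothened agonist SAG, and per the labels also give interneurons (39 and 35). A further Epi culture of the female line had spent 7 passages in Activin A and FGF2 (41 cells). Embryo cells were 23 from the ICM, the inner cell mass, at E3.5 and 23 from the epiblast at E4.5, from the same cross and without a sex label, and epiblast at E5.5 (20 female, 63 male), from C57BL/6J parents. The labels name no engineered allele.

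BMP ligands bind receptors of 2 types at the cell surface, which phosphorylate Smad1, Smad5 and Smad9, and these enter the nucleus with Smad4. The Id genes are among their direct targets. Id proteins hold a helix-loop-helix but no DNA-binding region, so they take E proteins away from the tissue-specific factors that need them for binding. Smad6 is itself induced by the pathway and blocks it. In ES cells, serum supplies BMP activity, and Id expression is a known part of how such cells avoid neural differentiation.

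Cells contained a median of 8122 to 10840 genes at 1 FPKM or more per group. Within the cultures the medians were 10400 and 10393 in 2i, against 9444 and 9645 in serum. The labels were checked against marker genes. All 6 pluripotency markers averaged at least 1 FPKM in the 2i and serum cultures. The female Epi culture also held all 6 at that level, and the male and 7-passage Epi cultures 4 of 6. All 8 neuronal markers averaged 1 FPKM or more in both motor neuron cultures, against 3 or 4 of 8 in 2i and serum, but their median sum per cell, 148 FPKM in the female culture and 1132 FPKM in the male, compares with 120 to 148 FPKM in 2i and serum. The same 2 cultures held 9 of 10 endoderm markers at that level, against 2 or 3 in 2i and serum. In the embryo, 10 of 23 cells labelled E3.5 ICM and 15 of 23 labelled E4.5 epiblast had 10 FPKM or more of both Cdx2 and Gata3, which mark trophoblast. At E5.5 the visceral endoderm genes Ttr and Apoa1 had medians of 504.4 and 1163 FPKM in female cells, with 104.3 and 284.1 FPKM in male cells. Embryo values are therefore given below with and without the cells high in trophoblast genes.

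The genes lie on 6 chromosomes of mm10. Their positions in GENCODE are chr14:46383520-46390669 for Bmp4 (minus strand), chr2:172868012-172940321 for Bmp7 (minus), chr9:63953076-64022059 for Smad6 (minus), chr2:152736251-152737410 for Id1 (plus), chr12:25093799-25097140 for Id2 (minus), chr4:136143497-136145755 for Id3 (plus) and chr13:48261228-48266026 for Id4 (plus). Bmp4 overlaps the opposite-strand genes Gm15217 and Gm15222, and Id4 overlaps A330033J07Rik and Gm49291. Whether counting used strand is not given in the sources used here, so reads of those pairs cannot be told apart. RefSeq promoters (build GRCm38.p6, the 250 bases before the start) were matched for 5 of the 7 genes, Bmp4, Smad6, Id2, Id3 and Id4, and searched on both strands for GGCGCC and GTCTG, both bound by Smad proteins, for the E-box CANNTG and for TTCNNNGAA, a STAT motif. GGCGCC starts at position -231 in Id2 and at -148 in Id4, counted back from the start, and is in 9.59% of all 32851 promoters. Id2 and Id4 are shown because they are the members called in motor neuron cultures. Bmp4, the only ligand of the 7 with a matched promoter, is shown too, and neither Smad motif was found in its window. GTCTG matched 2 times in the Id3 window and in no other of the 5, against 42.2% of all promoters with a match; all 250 bases of that Id3 window lie inside annotated exons. E-boxes matched 3 times in Bmp4 and 1 time in Id2 (66.2% of promoters), and the STAT motif matched none of the 5 (7.02%). The motifs do not overlap in the stretches shown, and a match is not a measured site. Capitals mark matches of any of the 4 motifs. The Id4 stretch is chr13:48260866-48261115 (plus strand) and the Bmp4 stretch chr14:46390670-46390919 (minus). The Id2 stretch is chr12:25096254-25096342 (minus), the 89 bases upstream of an annotated Id2 exon that covers the other 161. All 250 bases of the Id2 window lie inside the Id2 gene as placed by GENCODE, whose 5' end is at 25097140. Positions in Id2 are therefore counted from a RefSeq start within that gene.
Id4: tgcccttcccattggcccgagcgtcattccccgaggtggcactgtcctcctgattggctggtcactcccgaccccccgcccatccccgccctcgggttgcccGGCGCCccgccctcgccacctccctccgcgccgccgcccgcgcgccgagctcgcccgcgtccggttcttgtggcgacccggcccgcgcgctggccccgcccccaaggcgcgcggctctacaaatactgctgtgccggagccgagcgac
Id2: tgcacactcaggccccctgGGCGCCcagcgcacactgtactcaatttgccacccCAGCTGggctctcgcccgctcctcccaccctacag
Bmp4: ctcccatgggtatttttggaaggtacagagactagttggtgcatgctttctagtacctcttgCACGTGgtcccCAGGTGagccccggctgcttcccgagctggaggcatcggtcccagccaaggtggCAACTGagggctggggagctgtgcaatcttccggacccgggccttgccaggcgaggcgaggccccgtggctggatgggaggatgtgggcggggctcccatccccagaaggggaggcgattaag

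**Figure D1:**
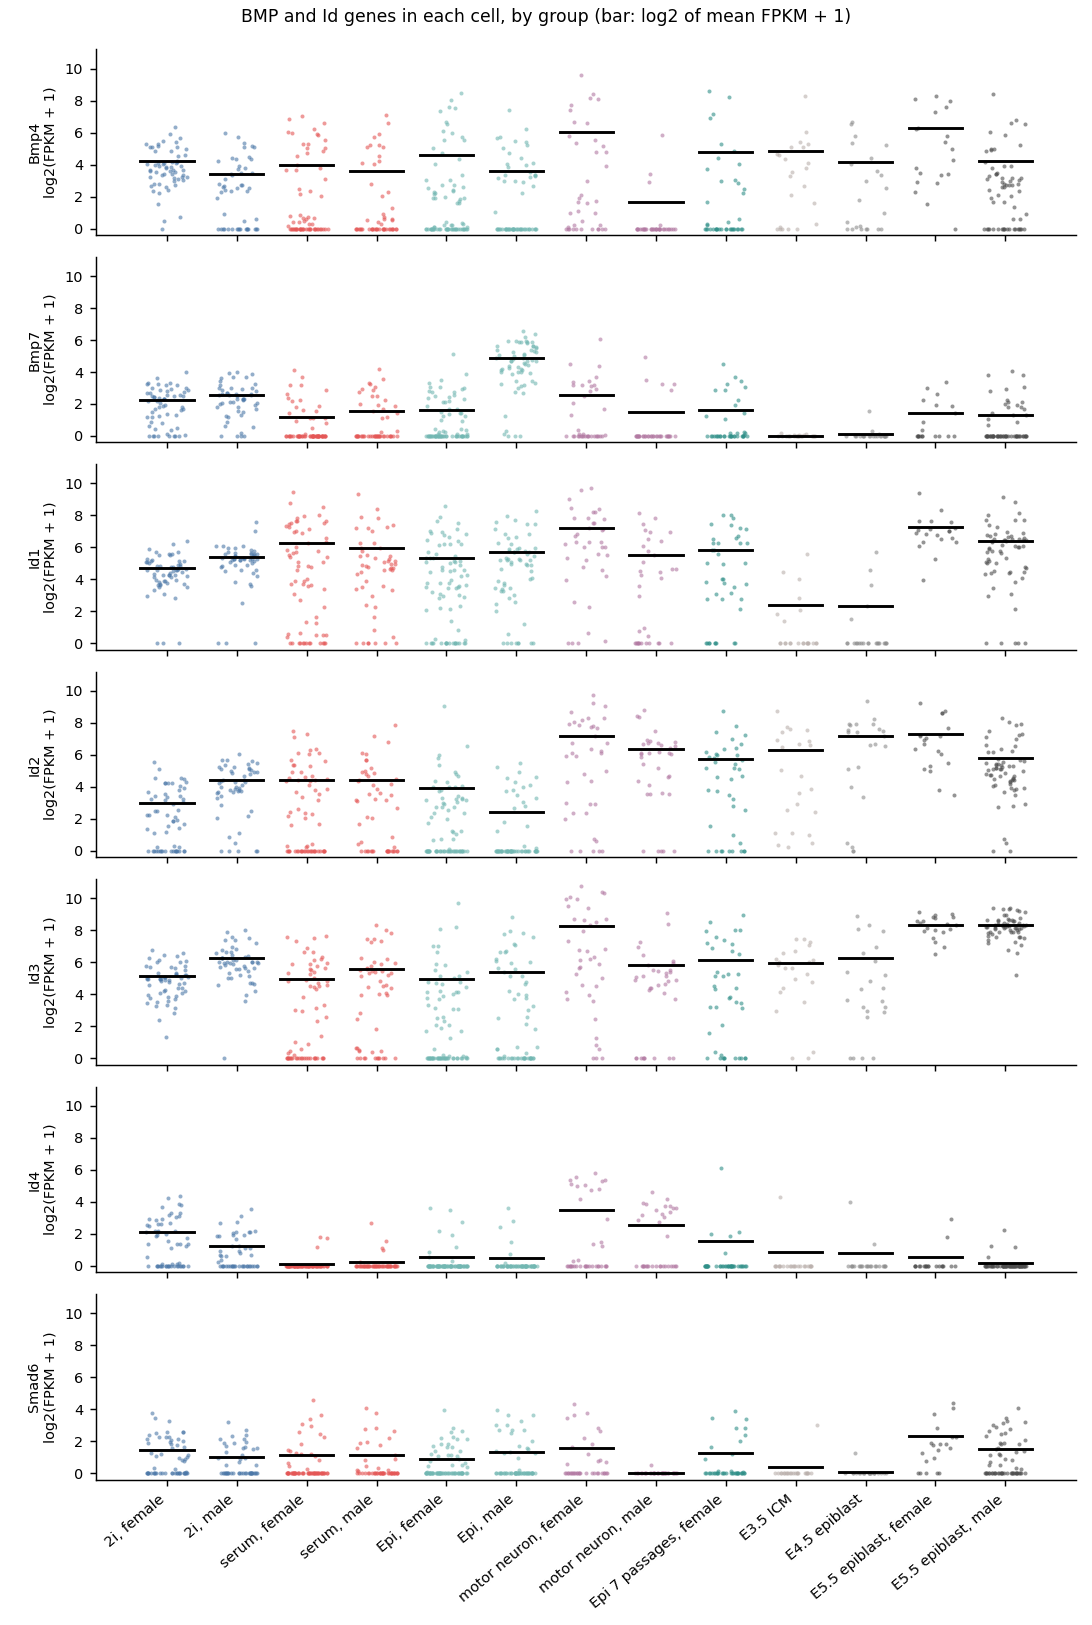
Level of each gene in each of the 617 cells, as log2(FPKM + 1), for the 13 groups; each point is a cell and the black bar is the log2 of the group's mean FPKM + 1. For Id1 and Id3 most 2i cells lie near the bar, in serum and Epi many cells lie at 0 with others far above it, and at E5.5 all Id3 points lie above 36 FPKM.

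Across the 13 groups the genes differed in level and in range. Mean Id3 ran from 30.02 FPKM in female Epi cells to 327 FPKM in female E5.5 cells, and mean Id1 from 3.99 FPKM at E4.5 to 154 FPKM in female E5.5 cells. Mean Id2 ran from 4.38 FPKM in male Epi cells to 161 FPKM in female E5.5 cells. Bmp4 was lowest in male motor neuron cultures (2.09 FPKM) and highest in female E5.5 cells (77.1 FPKM). These 4 genes thus had their highest mean in the same group of 20 cells. Next in order were male E5.5 cells for Id3 (323 FPKM), female motor neuron cells for Id1 and Bmp4 (150 and 64 FPKM) and E4.5 for Id2 (145.6 FPKM). The gaps were smaller than the SD over cells, which describes spread among cells and not the error of a mean. The order of the groups was not tested. Id4 exceeded a mean of 1 FPKM in 5 of 13 groups: both motor neuron cultures, both 2i cultures and the 7-passage Epi culture, where 1 cell held 68.7 FPKM. Bmp7 stood highest in male Epi cells (28.9 FPKM) and was at or below 5.00 FPKM in the other 12 groups, while Smad6 stayed between 0.0122 and 3.98 FPKM. The 4 tables were normalized separately, so levels across cultures and embryo stages carry no test.

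Serum against 2i addressed whether the genes differ between conventional and ground-state culture. None of the 7 means was called by the test, where 0.0193% of 15504 genes were. In both lines a smaller share of serum cells held each of the 7 genes, and the spread over cells was wider relative to the mean. The ligand Bmp4 was at 1 FPKM or more in 95% of female and 60.8% of male 2i cells, against 36.8% and 30.8% in serum. Its mean stayed close, at 17.4 and 9.69 FPKM in 2i and 14.7 and 11.0 FPKM in serum, while single serum cells reached 131.1 and 137.9 FPKM, above the 80.9 and 61.5 FPKM maxima of 2i. Bmp7, the other ligand, fell into the same order, with 73.3% and 84.3% of 2i cells and 25% and 36.5% of serum cells. Its mean was also lower in serum in both lines, at 1.24 and 1.97 FPKM against 3.68 and 4.82 FPKM in 2i. Smad6 was at 1 FPKM or more in 43.3% and 31.4% of 2i cells and in 22.1% and 21.2% of serum cells.

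Id3, the most abundant Id gene in 2i, was in nearly all 2i cells and in far fewer serum cells. In 2i its lowest, median and highest values were 1.56, 29.9 and 107 FPKM in the female line and 0, 62.9 and 257.3 FPKM in the male line. In serum the female line had 0, 6.88 and 197 FPKM, and the male line 0, 21.5 and 321 FPKM. The ranges overlapped, with higher maxima and lower medians in serum, and 24 of 68 female and 11 of 52 male serum cells were listed at 0, against 0 of 60 and 1 of 51 in 2i. The share at 1 FPKM or more was 100% (exact 95% binomial interval 94.04 to 100) and 98.04% (89.6 to 100) in 2i, and 57.4% (44.8 to 69.3) and 67.3% (52.9 to 79.7) in serum; these intervals cover counting error only. Id1 was in 95% and 94.1% of 2i cells and 72.1% and 82.7% of serum cells, while its highest cell was at 81.96 and 195 FPKM in 2i and at 693 and 663 FPKM in serum. Id2 had the smallest gap among the Id genes in the female line, 65% in 2i and 55.9% in serum, with 86.3% and 57.7% in the male line. Id4 was found in 56.7% and 35.3% of 2i cells but in 3 of 68 and 3 of 52 serum cells (4.41% and 5.77%).

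All 7 genes had a lower share in both serum cultures than in both 2i cultures, an order found for 34% of 15504 tested genes. The median difference was -36.7 percentage points over the 7 genes and -1.19 over all tested. The coefficient of variation (CV, the SD over cells divided by the mean) was higher in both serum cultures for all 7, which 58.6% of 14097 genes with a CV shared. The median log2 ratio of CV, serum over 2i, was 1.11 over the 7 and 0.35 over all. For Id3 the CV was 0.70 and 0.74 in 2i and 1.57 and 1.51 in serum, and for Id4 1.36 and 1.61 against 4.87 and 4.31. The SD itself was lower in serum for Bmp7 (2.92 and 3.52 FPKM, against 3.27 and 3.85 in 2i) and for Id4 (0.434 and 0.799, against 4.52 and 2.19), whose means were also lower. With 2 cultures a state, these counts are a description. Serum cells also had fewer genes detected, as given above; the part of that difference in these shares was not tested. Within the lower run of title numbers the share order held for 6 of 7 genes (not Id2) and the CV order for 5 of 7 (not Bmp4 or Id2), and within the higher run for 7 of 7 each; the female serum culture is a single run and entered whole.

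**Figure D2:**
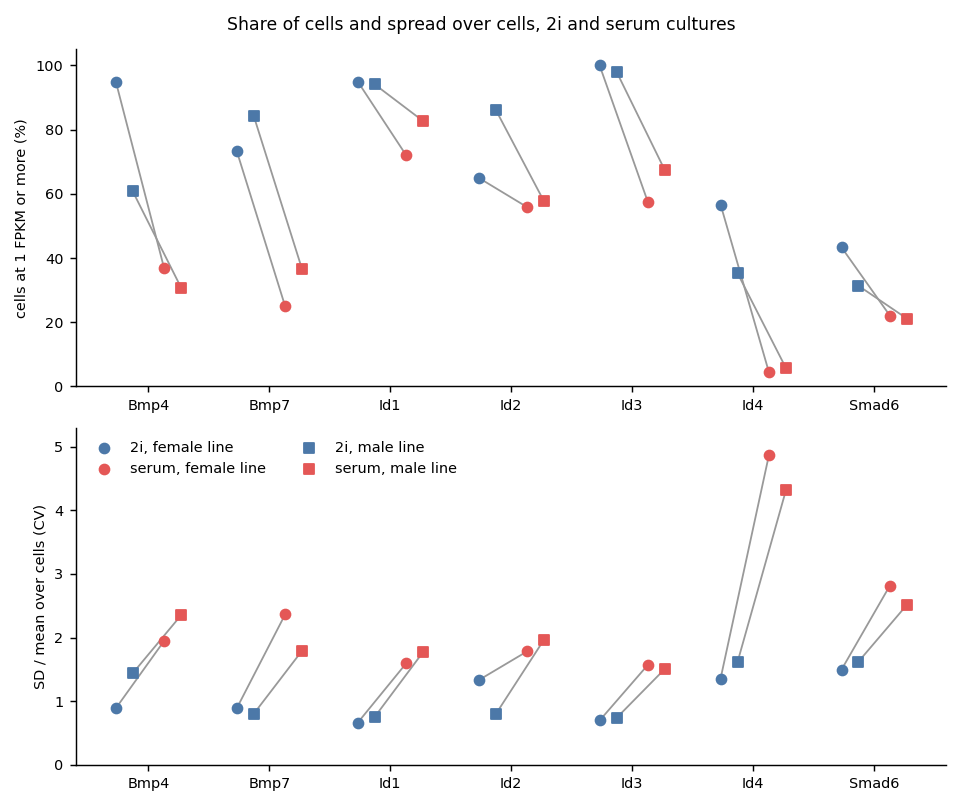
Share of cells at 1 FPKM or more (top, in %) and CV over cells (bottom, no unit) of the 7 genes in 2i (blue) and serum (red), with the female line as circles, the male line as squares and a grey line joining cultures of a line. Each red point lies below the blue points of its gene in the top panel and above them in the bottom panel, as for Id3 with 100% and 98.04% against 57.4% and 67.3%.

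The means were tested with limma on log2(mean FPKM + 1) of the 8 cultures, 2 per state. Nothing in the labels says that cultures of a state were replicated beyond the 2 lines, so p-values measure the spread between lines. The 3 comparisons share cultures: serum stands in each. None of the 7 genes was called (adjusted p under 0.05 and a change of at least 1 on that scale) in serum against 2i, where 0.0193% of 15504 genes were. Only Id4 of the 7 had an unadjusted p under 0.05. It stood at 3.34 and 1.36 FPKM in 2i and 0.0891 and 0.185 FPKM in serum (log2 change -1.49, SE 0.45, limma adjusted p = 0.318). Id1 was 24.9 and 40.7 FPKM in 2i and 75.9 and 62.04 FPKM in serum (1.08, SE 0.56, limma adjusted p = 0.645), higher in both serum cultures. When log2 values were averaged over cells before the fit, 1.44% of genes were called and again 0 of the 7; Id1 and Id2 then had the opposite sign (-0.40 and -0.34, against 1.08 and 0.74 for means). On the pathway lists, 3 of 8 further ligands, 5 of 7 receptors, 3 of 4 Smad transducers, 13 of 16 inhibitors, 7 of 9 other targets, 3 of 3 E proteins and 4 of 12 tissue helix-loop-helix genes could be tested, and none was called. The largest gaps upward were Dusp9, a phosphatase (2.32, limma adjusted p = 0.0778), and Neurod1, a neuronal factor (1.71, 0.409). Those downward were the transcription factors Tbx3 (-2.85, 0.0882) and Gata2 (-2.84, 0.0855).

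Epi against serum compared the cells primed with Activin A and FGF2 with conventional ES cells. None of the 7 genes was called by limma, against 0.0387% of 15504 genes, and none had an unadjusted p under 0.05. The widest gap between lines was in Bmp7, whose protein signals in the kidney, the eye and the early embryo. Female Epi cells averaged 2.09 FPKM and male Epi cells 28.9, with serum at 1.24 and 1.97 FPKM, and the line differences were 0.47 and 3.34 on the log2 scale (fitted 1.90, SE 1.01, limma adjusted p = 0.727). In the male Epi culture 58 of 63 cells held Bmp7 at 1 FPKM or more (92.1%) with a CV of 0.75, while the female Epi culture had 36.7% and the 7-passage female culture 29.3% and a mean of 2.03 FPKM. The male Epi culture also had a lower pluripotency sum than the female Epi culture (median 788 against 5230 FPKM), as did the 7-passage culture (808 FPKM); the part of this in the Bmp7 level was not tested. Id2 stood at 14.3 and 4.38 FPKM in Epi and 20.5 and 20.8 FPKM in serum (-1.26, SE 0.65, limma adjusted p = 0.727). In the 7-passage culture it was 51.7 FPKM, above both other Epi cultures, with 75.6% of cells at 1 FPKM or more. Fitted differences were -0.60 for Id1 (39.4 and 51.04 FPKM in Epi), -0.12 for Id3 (30.02 and 40.4 FPKM), 0.30 for Bmp4, 0.32 for Id4 and -0.02 for Smad6. No gene of the pathway lists was called. Cer1, a secreted inhibitor of BMP, Nodal and Wnt (4.73, limma adjusted p = 0.727), and Fst, which binds activin (2.88, 0.727), had the largest upward differences, and Gdf3, a ligand of the family (-3.25, 0.731), and Neurod1 (-0.69, 0.791) the largest downward ones. All 4 were wider in the male line: 7.58 against 1.87 in the female line for Cer1, 5.20 against 0.56 for Fst and -6.28 against -0.22 for Gdf3, while Neurod1 was at -1.93 in the male and 0.55 in the female line.

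Motor neuron against serum compared differentiated with conventional ES cultures. Id2 and Id4 rose, 2 of 7 genes, where 32.8% of 15504 genes were called and the median of all tested genes was 0.71 higher. The members' share is thus near that of all genes. Id4, which in the nervous system is found in progenitors, was listed at 0 in 65 of 68 and 47 of 52 serum cells. In motor neuron cultures it reached 53.8 FPKM in the highest female and 23.6 FPKM in the highest male cell, with medians of 0 and means of 10.1 and 4.95 FPKM. It was at 1 FPKM or more in 38.5% and 45.7% of those cells (log2 change 2.84, SE 0.45, limma adjusted p = 0.00652). Id2 had lowest, median and highest values of 0, 68.9 and 854 FPKM in female motor neuron cells and of 0, 65.5 and 449 FPKM in male ones. In serum they were 0, 3.68 and 178 FPKM, and 0, 6.58 and 230.9 FPKM, so the ranges overlap while the medians lie far apart. Its means were 143.8 and 83.05 FPKM against 20.5 and 20.8 FPKM, higher in both lines (2.35, SE 0.65, limma adjusted p = 0.0338). The Id2 call was lost with cells rescaled to 1 sum (1.69, limma adjusted p = 0.0949) and with upper-quartile scaling (1.22, limma adjusted p = 0.291), and without any of the 4 serum and motor neuron cultures (limma adjusted p 0.0774 to 0.136). It was also lost without a low-value filter, in the lower run of title numbers and with the 7-passage Epi culture (limma adjusted p = 0.143, 0.214 and 0.112). The Id4 call was lost without the female serum culture (limma adjusted p = 0.0504).

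The other 5 genes were not called, and most differed between the lines. In motor neuron cells Id3 averaged 308 FPKM for the female line but 56.2 FPKM for the male line, against 30.4 and 47.4 FPKM in serum, line differences of 3.30 and 0.24 (limma adjusted p = 0.129). Id1 was 150 FPKM against 75.9 in the female line and 45.6 FPKM against 62.04 in the male line. Bmp4 was 64 FPKM in the female motor neuron culture, where the highest cell held 759 FPKM and the median cell 2.19, and 2.09 FPKM in the male culture, where 3 of 35 cells held it. Against serum the difference in log2(mean FPKM + 1) was 2.05 in the female and -1.96 in the male line. Smad6 was at 1 FPKM or more in 10 of 39 female and 0 of 35 male cells, where a count of 0, with 3 cells of 35 taken as its upper limit, allows a share of up to 8.57%. Bmp7 was 5.00 and 1.83 FPKM. The female culture held 6 of 7 mesenchyme markers at a mean of 1 FPKM or more (median sum 35.8 FPKM, range 0 to 1264). The male culture held 2 of 7 (median 14.4, range 0 to 105.5), with Pdgfrb and Postn at 0. All 6 pluripotency markers reached that mean in the female culture and 3 in the male. The part of both lists in the line differences was not tested. Over the 39 female cells Bmp4 had a Spearman rho of 0.44 with the summed mesenchyme list. It was 0.56 with the neural progenitor list and 0.70 with the decidua list. For Id3 the 3 values were 0.37, 0.58 and 0.76. In the 35 male cells Id3 had -0.26, 0.52 and 0.40. Of the 8 decidua genes, which include Dcn and Vim, only 3 averaged 1 FPKM or more in the female culture and 2 in the male. Prl8a2 and Hoxa11 were at 0 in all cells of both.

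**Figure D3:**
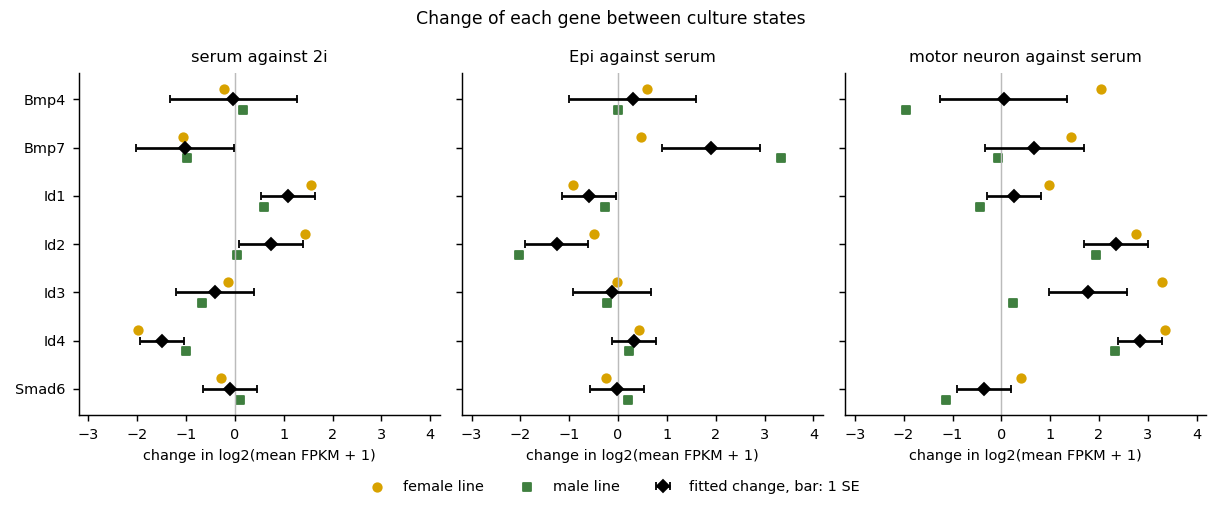
Difference of each gene in log2(mean FPKM + 1), in 3 panels for serum minus 2i, Epi minus serum and motor neuron minus serum: black diamonds are the limma estimate with 1 SE, yellow circles the female line and green squares the male line. Id2 and Id4 lie right of 0 in both lines in the right panel, and Bmp4 lies at 2.05 in the female and -1.96 in the male line.

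Among the pathway lists in this comparison, 4 of 5 tested receptors, 2 of 3 transducers, 6 of 13 inhibitors, 3 of 7 other targets and 1 of 3 E proteins were called higher and none of these lower. Of 4 tested tissue helix-loop-helix genes 1 was higher and 1 lower, and of 3 tested ligands none was called. Median changes were 2.26 for receptors, 1.24 for transducers, 1.07 for inhibitors and 1.54 for targets, beside 0.71 for all genes. Fst rose by 4.73 on the log2 scale, the target Msx2 by 3.08, the transducer Smad1 by 2.87, the secreted regulator Bmper by 2.80 and the type I receptor Acvr1 by 2.51, while Olig1, an oligodendrocyte and progenitor factor, fell by 2.74 (limma adjusted p 0.00479 to 0.0432). Scaling and other settings move these counts, as does leaving out single cultures. For means of log2 values 3 receptors, 5 inhibitors and 1 target were called higher and 1 ligand lower. No transducer or E protein was called there. With cells rescaled to 1 sum, 2 receptors and 3 inhibitors were called higher, and with upper-quartile scaling 2 receptors and 1 inhibitor; under both, no transducer, target or E protein was called, and 1 tissue helix-loop-helix gene was lower. The E protein median of 0.79 became -0.25 with upper-quartile scaling. Of all genes, 4669 were called higher and 419 lower as deposited, 2166 and 971 with cells rescaled to 1 sum, and 1474 and 1827 with upper-quartile scaling, where the median of all genes was -0.27.

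Within motor neuron cultures all 6 pairs of Id genes were positively correlated in both lines, from 0.24 (Id3 and Id4, male) to 0.63 (Id2 and Id4, female). With the number of genes per cell held constant these 2 values were 0.13 and 0.62. The share of all gene pairs with a positive value in these cultures was not computed. Id2 correlated with the summed neuron list at 0.47 over 39 female and 0.42 over 35 male cells, and with the summed endoderm list at -0.63 and -0.44. Id4 had the same pattern, 0.47 and 0.44 with neuron genes and -0.57 and -0.41 with endoderm genes. For Id1 the neuron values were 0.22 and 0.11 and the endoderm values -0.27 and 0.04, and for Id3 they were 0.16 and 0.37, and -0.25 and -0.15. Differences between these values were not tested. Cells of a culture share that culture and its range of depth, so these correlations describe those cells and carry no p.

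In the embryo, Id1 and Id3 stood far apart before implantation and both were in nearly all cells at E5.5. Id1 was at 1 FPKM or more in 7 of 23 cells at E3.5 (lowest, median and highest 0, 0 and 47.5 FPKM) and 5 of 23 at E4.5 (0, 0 and 51.4). At E5.5 it was in 20 of 20 female cells (14.5, 124.1 and 674 FPKM) and 58 of 63 male cells (0, 64.3 and 568). Most blastocyst cells were thus listed at 0 for Id1 while most E5.5 cells held it. Id3 was present throughout, with medians of 50.1 FPKM at E3.5, 19.3 at E4.5, 331 in female and 302 in male E5.5 cells. All 83 E5.5 cells held Id3, from 91.9 to 563 FPKM in female and 36.2 to 674 FPKM in male cells. Its CV there, 0.41 and 0.44, was the lowest of any of the 7 genes in any group. Mouse cross, table and stage change together between E4.5 and E5.5 and cannot be told apart.

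Without the cells high in trophoblast genes the Id1 order was the same. Of the other cells, 5 of 13 at E3.5 and 2 of 8 at E4.5 had Id1 at 1 FPKM or more, and 11 of 11 female and 40 of 45 male cells at E5.5 (there, those under 10 FPKM of both Gata3 and Elf5). The log2 ratio of E5.5 (the average of female and male) over E4.5, on log2(mean FPKM + 1), was 4.53 for Id1 with all cells and 4.10 without those cells, and 2.04 and 1.16 for Id3. The summed FPKM per cell also differed, with medians of 511794 at E4.5 and 1027092 and 995182 in female and male E5.5 cells. At E3.5 its median was 612768 and its highest value 7897578, and the fewest genes in a cell there were 3923. The ratios in this paragraph are not scaled for the summed FPKM. Visceral endoderm genes remained in the cells kept (median Ttr 531 and Apoa1 1114 FPKM in the 11 female cells, 81.4 and 206 FPKM in the 45 male cells). The summed endoderm list had a median of 314 FPKM at E4.5 and of 4767 and 1235 FPKM in female and male E5.5 cells. At E5.5 its rank correlation with Id1 was 0.44 over 20 and 0.55 over 63 cells, and its part in the Id1 levels was not tested. For Bmp4 the sign turned, from 1.08 to -1.33, and for Id2 from -0.62 to 1.95. For Id2 from E3.5 to E4.5 it went from 0.87 to -1.60, which rests on 1 E3.5 cell at 426 FPKM: without that cell too it was 0.92. The stage levels of Bmp4 and Id2 therefore rest on which cells are counted, as does the Id3 median before implantation. From E3.5 to E4.5 that median went from 50.1 to 19.3 FPKM with all cells. In the cells without both Cdx2 and Gata3 at 10 FPKM it went from 65.4 to 79.9 FPKM. Smad6 was at 1 FPKM or more in 1 of 23 cells at both E3.5 and E4.5 and in 13 of 20 and 24 of 63 at E5.5. Bmp7 was in 0 of 23 cells at E3.5, which with the same limit of 3 cells allows a share of up to 13.04%, in 1 of 23 at E4.5, and in 7 of 20 and 18 of 63 at E5.5, and Id4 was in 3 cells or fewer in each embryo group.

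Id2 followed trophoblast genes in all 4 embryo groups. In the 10 E3.5 cells with both Cdx2 and Gata3 its lowest, median and highest values were 31.8, 118.1 and 213 FPKM, and in the other 13 cells 0.203, 4.31 and 426 FPKM. At E4.5 the 15 such cells ran from 94.8 to 657 FPKM with a median of 184, and the other 8 from 0 to 36.7 FPKM with a median of 4.82. The E4.5 ranges do not overlap, and at E3.5 only 1 cell of the other set, at 426 FPKM, lay within or above the range of the 10. Id3 went the other way, with medians of 23.4 against 65.4 FPKM at E3.5 and 8.43 against 79.9 at E4.5. Cdx2 and Gata3 chose these sets, and the sets are not groups of the study. The rank correlation of Id2 with the summed trophoblast list was 0.90 at E3.5, 0.78 at E4.5, 0.87 in female and 0.77 in male E5.5 cells, over 23, 23, 20 and 63 cells; in the 9 cultured groups it lay between -0.39 and 0.26. Other members followed the trophoblast list at E5.5 as well, in female and male cells. Their rho was 0.70 and 0.54 for Bmp4, 0.60 and 0.59 for Id1, 0.68 and 0.23 for Smad6 and 0.48 and 0.39 for Bmp7. Id3 was at -0.34 and -0.24. Gata3 and Hand1 are on the trophoblast list and also among the other pathway targets, so the lists are not independent. Bmp4 stood at a median of 158 FPKM in 9 female cells with 10 FPKM or more of Gata3 or Elf5 and 9.02 FPKM in the other 11, and at 8.74 and 3.07 FPKM in the 18 and 45 male cells. Extraembryonic ectoderm, which lies beside the epiblast at that stage and expresses Elf5, is a known source of Bmp4. Whether the chosen cells came from it was not tested, and a cell with Gata3 alone was also chosen. Median Ttr and Apoa1 were 475 and 1365 FPKM in the 9 female cells, against 531 and 1114 FPKM in the other 11. In the 18 male cells they were 193 and 419 FPKM, against 81.4 and 206 FPKM in the other 45.

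**Figure D4:**
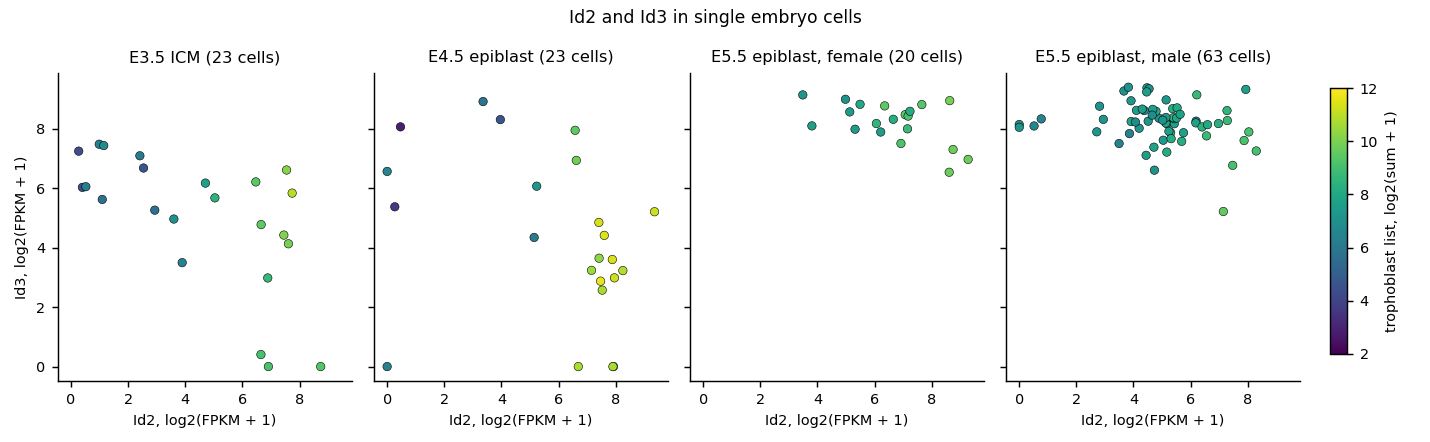
Id3 against Id2 in each embryo cell, as log2(FPKM + 1), for the 4 embryo groups, coloured by the log2 of the summed FPKM of 9 trophoblast genes + 1. At E3.5 and E4.5 cells high in Id2 are yellow or light green and mostly low in Id3, and at E5.5 all cells are high in Id3.

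The relation of the genes among cells changed from group to group. Bmp4 and Id1, a ligand and a target of the pathway, were positively correlated in 13 of 13 groups, but weakly, with Spearman rho from 0.16 at E3.5 to 0.43 in female E5.5 cells and a median of 0.29. With the number of genes per cell held constant it ran from 0.10 to 0.43. No other pair of the 7 genes was positive in all 13, and Bmp4 was positive with Id2 and with Id3 in 10 of 13 each. In the male motor neuron group only 3 of 35 cells held Bmp4 at 1 FPKM or more. How many of all gene pairs are positive in every group was not computed. Id1 and Id3 had rho near 0 in 2i (0.02 female, -0.09 male), 0.13 and 0.26 in serum, 0.28 and 0.41 in Epi, 0.54 in the 7-passage culture and 0.43 and 0.61 in motor neuron cultures. In the embryo it was again near 0 (-0.10, 0.07, 0.05 and -0.02), although both genes were in nearly every E5.5 cell. Id2 and Id3 were negatively correlated in all 4 embryo groups (-0.61 at E3.5, -0.50 at E4.5, -0.38 and -0.21 at E5.5) and positively in motor neuron cultures (0.45 and 0.29). Bmp4 correlated with Id2 at 0.84 in female and 0.48 in male E5.5 cells, and with Id3 at -0.62 and -0.30 in the same cells. Bmp4 with Id3 was 0.69 in female motor neuron cells. Id4 and Smad6 were too sparse in most groups to read.

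**Figure D5:**
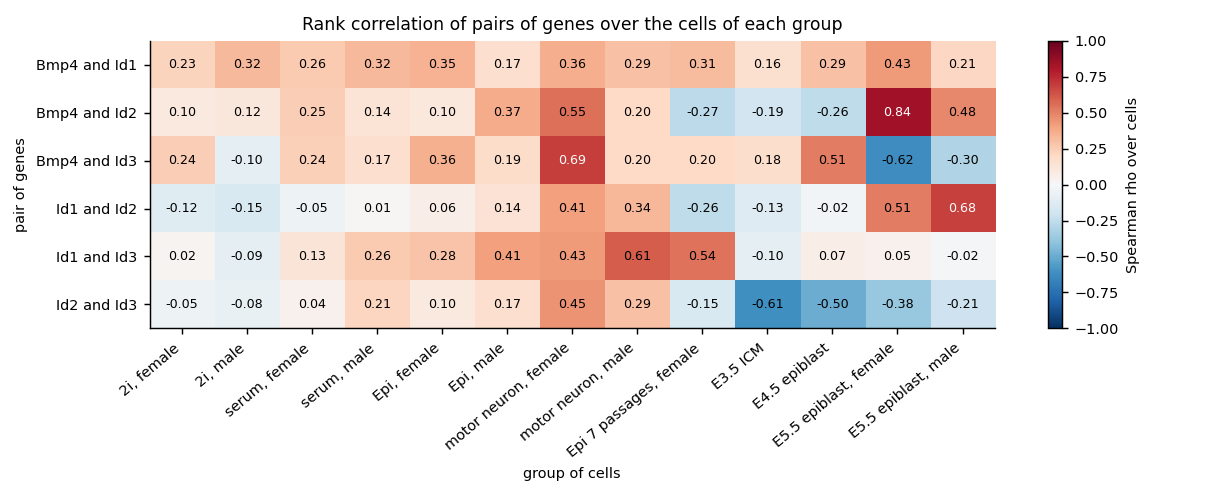
Spearman rho over the cells of each of the 13 groups (columns) for 6 pairs of genes (rows), from blue (negative) to red (positive). The Bmp4 and Id1 row is positive throughout, and the Id2 and Id3 row is negative in the 4 embryo columns and positive, at 0.45 and 0.29, in the motor neuron columns.

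For each gene, the 3 genes with the highest mean rho within cultures were listed, over the 8 cultures or those in which at least 20% of cells held it. Among 8048 genes Id1 was most like Id3 (mean rho 0.26, positive in 7 of 8 cultures), S100a6 (0.24) and Tsc22d1 (0.24), and Id3 most like Tsc22d1 (0.27, positive in 8 of 8), Id1 (0.26) and Cavin1 (0.22). Over 7 cultures Bmp4 was most like Id1 (0.29, positive in 7 of 7), Tsc22d1 (0.29) and Tmsb4x (0.28), out of 7952 genes. Id1 thus stood on the lists of Bmp4 and Id3, and Tsc22d1, a TGF-beta-stimulated gene, on those of Bmp4, Id1 and Id3. Id2 was most like Ckb, brain creatine kinase (0.33), Gm12892 (0.31) and Arvcf (0.27), with no other gene of the 7. Id4, over 4 cultures, was most like Ids (0.41), Necab2 (0.39) and Marcksl1 (0.39). Bmp7 was most like Bbs4 (0.24), Baiap2 (0.20) and Aldh4a1 (0.20), and Smad6 most like Wdr26 (0.20), Klhl21 (0.18) and Sgce (0.18). The median over all genes lay between 0.0002 and 0.047 and the 99th percentile between 0.14 and 0.30, and these are the top values of a long list.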

How the data were processed

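Reads were aligned and quantified by the submitters; their processing notes name STAR 2.4.1, Cufflinks, Cuffnorm 2.2.1 and mm10, and filters and strandedness are not given in the sources used here. The deposited values are FPKM per gene and cell in 4 tables, without read counts, so the depth in reads is unknown; the authors' tables were normalized separately. In blastocyst cells, 356 values had an exponent written with a low line and were read as small numbers (at most 9.76e-05). Gene names came from GENCODE vM21 (42462 of 43628 IDs matched). The members, pathway lists and marker lists were chosen with earlier results of these data known.

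A culture's value is log2(mean FPKM over its cells + 1). The 15504 genes averaging 1 FPKM or more over the 8 cultures entered limma 3.58.1 with trend and 1 coefficient per state (4 residual degrees of freedom, Benjamini-Hochberg over all genes); it was tested on simulated data. Named genes were the 7 members, the called list genes up to 6 by size or else the 2 largest rises and 2 largest falls, and the 3 most correlated genes per member. Both lines are in every state, so cultures pair by cell line; female minus male differences correlated at 0.061 to 0.16 between states. Title numbers were split at gaps of 20 or more. Alternatives are listed with their effects in the closing section. Analyses used Python 3.11.15, scipy 1.17.1 and R 4.3.3.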

Additional observations from a re-analysis of the deposited data

Results flagged for a closer look

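Bmp4 in motor neuron against serum cultures moved in opposite directions in the 2 lines, by 2.05 in the female line and -1.96 in the male line on log2(mean FPKM + 1). Each line has 1 culture per state, so the difference between lines was not tested. Without the female motor neuron culture the fitted change was -2.15 (limma adjusted p = 0.0416), and without the male culture 2.24 (limma adjusted p = 0.0477).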

How the results depend on the processing

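Counts of called genes were 0 of 7 in serum against 2i and in Epi against serum under all alternatives run. For motor neuron against serum the count was 2, and 1 without a low-value filter, with a filter at 5 FPKM (where Id4 was not tested), with cells rescaled to 1 sum, with upper-quartile scaling, in the lower run of title numbers and with the 7-passage Epi culture; leaving out single cultures gave 0 to 3 (0 without female serum, 1 without male serum, 3 without either motor neuron culture). With line as a replicate block it was 2, and the block changed no call of the 7 genes. Genes called overall ranged, for serum against 2i, from 0 to 224 (for means of log2 values) and, for Epi against serum, from 0 to 848 (with the 7-passage culture). For motor neuron against serum they were 5088 and ran from 1669 (without female serum) to 5688 (with the 7-passage culture), with 1888 without male serum, 3072 without a filter and 2876 from the 4 cultures alone; for means of log2 values 2570 were higher and 855 lower. Scaling by sum or upper quartile moved the median of all genes from 0.71 to 0.14 and -0.27. The sign of the fitted change turned as follows, all without a call outside the left-out cultures, and the cause was not tested. Bmp4 in motor neuron against serum (0.05) was -0.11 with pseudocount 0.1, -0.0060 for means of log2 values, -0.42 with rescaled cells, -0.88 with upper-quartile scaling, -0.10 and -0.22 in the lower and higher run, and -2.15 to 2.24 without single cultures. Bmp4 in serum against 2i (-0.03) was 0.0056 with upper-quartile scaling, 0.48 in the lower run and -0.42 to 0.36 without single cultures; in Epi against serum (0.30) it was -0.44 in the lower run and -0.20 to 0.79 without single cultures. Id1 was -0.40 and Id2 -0.34 in serum against 2i for means of log2 values. In motor neuron against serum Id1 (0.27) was -0.29 with rescaled cells, -0.87 with upper-quartile scaling and -0.58 to 1.11 without single cultures, Bmp7 (0.68) was -0.064 with upper-quartile scaling, and Smad6 (-0.36) was -1.14 to 0.42 without single cultures. Smad6 in Epi against serum (-0.02) was 0.064 for means of log2 values, 0.13 with rescaled cells, 0.39 in the lower run, 0.16 with the 7-passage culture and -0.24 to 0.20 without single cultures, and in serum against 2i (-0.09) it was 0.031 in the higher run and -0.30 to 0.11 without single cultures. Id3 in Epi against serum (-0.12) was 0.23 in the higher run, 0.49 with the 7-passage culture and -0.43 to 0.19 without single cultures, and in serum against 2i (-0.41) it was -0.98 to 0.16. The shares of cells moved outside their interval in 31 cases, and stayed within it in the others, at thresholds of 0.1 or 5 FPKM, and the stage ratios moved by more than the spread over cells in 8 cases and by less in 63. The split by runs, and the splits of embryo cells by Cdx2, Gata3 and Elf5, with the E3.5 cell left out for Id2, were chosen after seeing the data. Where a culture is left out, the lone culture of its state is assumed to vary like the others. Read depth is unknown, so a value listed at 0 does not show absence.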
